A study of Mus musculus with 2 samples.

Results

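The 7 genes described here encode the epithelial sodium channel and the mineralocorticoid machinery that acts on it. They were taken from the gene rows of 2 spatial expression sections of mouse kidney by their symbols, Scnn1a, Scnn1b, Scnn1g, Sgk1, Nedd4l, Nr3c2 and Hsd11b2. All 7 were found, among 32285 listed genes. The study asked how inhibition of the cation channel TRPC6 bears on renal fibrosis. SH045 is an inhibitor of that channel, and the ureter of one kidney was tied off in C57BL/6 mice to produce an obstructed kidney. One obstructed kidney from a mouse given SH045 and one from a mouse given vehicle, both taken 7 days after surgery, were cut as fresh-frozen sections of 10 µm and measured on Visium slides, which capture RNA in small spots of a fixed grid. Each group is therefore 1 section of 1 mouse. The contralateral kidneys, which served the study as controls, and the single-cell libraries are not analysed here. A spot holds parts of several cells, so neither spots nor areas of a section are replicates, and no test between treatments was possible. Fewer cells of a type and less RNA per cell cannot be told apart in such data.

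Sodium entry across the apical membrane of the late distal convoluted tubule, connecting tubule and collecting duct runs through a channel built from the α, β and γ subunits, the products of Scnn1a, Scnn1b and Scnn1g. Aldosterone binds the mineralocorticoid receptor encoded by Nr3c2, which cortisol or corticosterone would also occupy if the enzyme encoded by Hsd11b2 did not inactivate them. The receptor induces the kinase SGK1, which phosphorylates the ubiquitin ligase NEDD4-2, the product of Nedd4l, and so holds back the removal of channels from the cell surface.

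The sections differed in depth and in state. The SH045 section had 790 spots and 22388623 UMIs, or unique molecules counted, with a median of 27733 per spot. The section labelled Vehicle had 676 spots and 4327613 UMIs, with a median of 4932.5 per spot, and 10.4% of its UMIs were mitochondrially encoded, against 4.24% in the SH045 section. The positions table deposited for the Vehicle section marked 1210 positions as lying under tissue, 570 of them among its 676 spots, so table and counts do not describe the same set of spots. The 2 matrices shared 335 spot barcodes, which are position codes that every slide area reuses. Injury markers of the tubule went against the labelled condition of the Vehicle section. Havcr1, which encodes the injury protein KIM-1, had 992 CPM (UMIs of a gene per 1e+06 UMIs of the section) with SH045 and 1.62 CPM with Vehicle, where it rested on 7 UMIs. Lcn2, another injury marker, was at 1233 and 2.08 CPM. Summed over 7 injured-tubule markers, the level was 26047 CPM in the SH045 section, with 24110 to 27919 over position blocks, and 1396 CPM in the Vehicle section, with 1250.3 to 1538 over blocks. Both sections carry the label of an obstructed kidney, so "Vehicle" below means the section labelled so. Treatment, mouse, slide area, depth and this difference in injury markers cannot be told apart in any comparison between the sections. A gene counted as measured from 10 CPM in one section or the other, and 10463 did. Their log2 ratios of SH045 to Vehicle had a median of 0.63, and 75.7% were above 0. Folds relative to that median are given where they change a statement.

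One promoter sequence is shown because it belongs to Sgk1, the gene whose order across the tissue was turned between the sections, and because it holds the element through which corticosteroid receptors are known to act. RefSeq windows for GRCm38.p6, each of 300 bases from 250 before to 50 after an annotated transcript start, were listed for 4 of the 7 genes, with 6 alternative starts for Sgk1 and 1 each for Scnn1b, Scnn1g and Nr3c2. They were searched on both strands for the palindrome of 2 TGTTCT half-sites, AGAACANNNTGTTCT, which is the classical element bound by glucocorticoid and mineralocorticoid receptors, and for the single half-site. The palindrome occurred in 3 of 32851 windows, 0.00913% of all windows listed for the mouse. These belonged to Acnat2, Gm35041 and Sgk1. In Sgk1 it lay on the plus strand of chromosome 10, in the window of the fifth listed start, and began 189 bases before that start. The stretch around it follows, with the 2 half-sites of the palindrome in capitals.

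Sgk1, chr10:21993681-21993735: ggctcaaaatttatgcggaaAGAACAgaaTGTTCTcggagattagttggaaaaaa

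A single half-site was held by 18.97% of all windows and by 3 of the 9 windows of these genes, all of them Sgk1 windows. The windows of Scnn1b, Scnn1g and Nr3c2 held neither, which says only that these letters were not in those windows. A match to letters does not show that a receptor binds there in these kidneys.

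The 3 channel subunits were lower in the SH045 section than in the Vehicle section, each to between 0.459 and 0.578 of its Vehicle level. Summed, they gave 170.8 CPM (3823 UMIs) with SH045 and 335.5 CPM (1452 UMIs) with Vehicle, a fold of 0.509 (95% interval 0.479 to 0.541, counting error only, as for every interval here). Hsd11b2 was lower by a somewhat larger factor and Sgk1 was at a like level in both sections. Nedd4l was the 1 gene of the set above its Vehicle level by 1.5-fold or more. Nr3c2 did not reach 10 CPM in either section. Of the 6 genes measured, 4 were at least 1.5-fold lower in the SH045 section, against 12% of all genes measured. At least 1.5-fold higher was 1, against 53.2% of all genes. Their median log2 ratio was -0.78, where that of all genes was 0.63. Relative to that shift 5 of the 6 measured were lower, against 25.7% of all genes, and 0 were higher, against 27.3%.

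Scnn1a (chromosome 6, 125314271 to 125344943, GRCm38.p6) encodes the α subunit, without which little channel reaches the membrane. Its level was 53.6 CPM (50.6 to 56.7, 1200 UMIs) with SH045 and 100.3 CPM (91.1 to 110.2, 434 UMIs) with Vehicle, a log2 ratio of -0.89. To show the spread within a section, each was split by position into 4 blocks of similar spot number. Blocks 1 to 4 held 63.6, 44.5, 58.1 and 46.5 CPM of Scnn1a in the SH045 section and 117.2, 92.4, 101 and 88.5 CPM in the Vehicle section. Every SH045 block lay below every Vehicle block.

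Scnn1b (chromosome 7, 121865038 to 121918728) encodes the β subunit. The β level was 72.6 CPM (69.1 to 76.2, 1625 UMIs) with SH045 and 158.1 CPM (146.4 to 170.4, 684 UMIs) with Vehicle, 2.18-fold lower (1.99 to 2.38). Its blocks held 78.4, 64.3, 89.0 and 52.2 CPM with SH045 and 183.4, 171.5, 164 and 125.5 CPM with Vehicle. The blocks did not overlap, and the fourth block was the lowest in both sections. Scnn1g (chromosome 7, 121734420 to 121768482), for the γ subunit, is the neighbour of Scnn1b, 96555 bases away on the same chromosome with 0 annotated genes between them. It was at 44.6 CPM (41.9 to 47.4, 998 UMIs) with SH045 and at 77.2 CPM (69.1 to 85.9, 334 UMIs) with Vehicle, a fold of 0.578 (0.510 to 0.656). Its blocks ran from 27.1 to 51.6 CPM and from 63.3 to 84.8 CPM, again without overlap. Of all genes measured, 13.5% had SH045 blocks that were all below the Vehicle blocks, and 56.3% had them all above.

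The subunits did not keep an identical balance. Per Scnn1b UMI, Scnn1g was 1.26-fold more abundant in the SH045 section than in the Vehicle section (1.08 to 1.47), and per Scnn1a UMI, Scnn1b was 0.859-fold as abundant (0.746 to 0.99). Scnn1g per Scnn1a gave a quotient of 1.08 (0.916 to 1.28), an interval that includes 1. Ratios of 2 genes within a section need no library scaling, so none of these depends on it.

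Hsd11b2 (chromosome 8, 105518746 to 105523988) encodes the 11β-hydroxysteroid dehydrogenase that shields the mineralocorticoid receptor from glucocorticoids. Its level was 149.4 CPM (144.4 to 154.6, 3345 UMIs) with SH045 and 345.9 CPM (328.6 to 363.9, 1497 UMIs) with Vehicle, 2.32-fold lower (2.18 to 2.46), the largest difference of the 7 in size. Blocks held 152.3, 154.3, 164.0 and 116.5 CPM with SH045 and 293.0, 299.7, 358.2 and 394.2 CPM with Vehicle, with no overlap. Nr3c2 (chromosome 8, 76898083 to 77245012), for the receptor itself, was scarcely captured. It had 121 UMIs in the SH045 section, 5.40 CPM (4.48 to 6.46), and 19 UMIs in the Vehicle section, 4.39 CPM (2.64 to 6.86), and did not reach the 10 CPM required for a gene to count as measured. Its fold of 1.23 had an interval of 0.755 to 2.12, and its blocks overlapped, from 4.14 to 6.27 CPM and from 1.89 to 5.39 CPM. A difference in Nr3c2 was not detectable at this depth.

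Sgk1 (chromosome 10, 21882184 to 21999903), the kinase gene, had 106.7 CPM (102.4 to 111.0, 2388 UMIs) with SH045 and 115.1 CPM (105.2 to 125.6, 498 UMIs) with Vehicle. The fold was 0.927 (0.841 to 1.02) and the log2 ratio -0.11. Blocks held 114.0, 101.8, 103.6 and 108.2 CPM with SH045 and 115.3, 90.5, 121.5 and 117.8 CPM with Vehicle, and they overlapped. Relative to the shift of all genes Sgk1 was 0.598-fold its Vehicle level, past the 1.5-fold limit, so whether it counts as equal or lower depends on that reference.

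Nedd4l, for the ubiquitin ligase that marks the channel for removal, went the other way. It had 77.5 CPM (73.9 to 81.3, 1736 UMIs) with SH045 and 42.5 CPM (36.6 to 49.1, 184 UMIs) with Vehicle, 1.82-fold higher (1.57 to 2.13). Blocks held 78.3, 73.6, 72.0 and 90.7 CPM with SH045 and 51.0, 30.2, 41.7 and 41.6 CPM with Vehicle. Every SH045 block lay above every Vehicle block, which held for 56.3% of all genes measured. Relative to the shift of all genes the fold was 1.18, inside the 1.5-fold limit, so the excess of Nedd4l was of the size seen for a typical gene. Its log2 ratio stayed above 0 under each scaling tried, at 0.28 with edgeR's TMM scaling and 0.23 with DESeq2's median-of-ratios scaling.

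**Figure D1:**
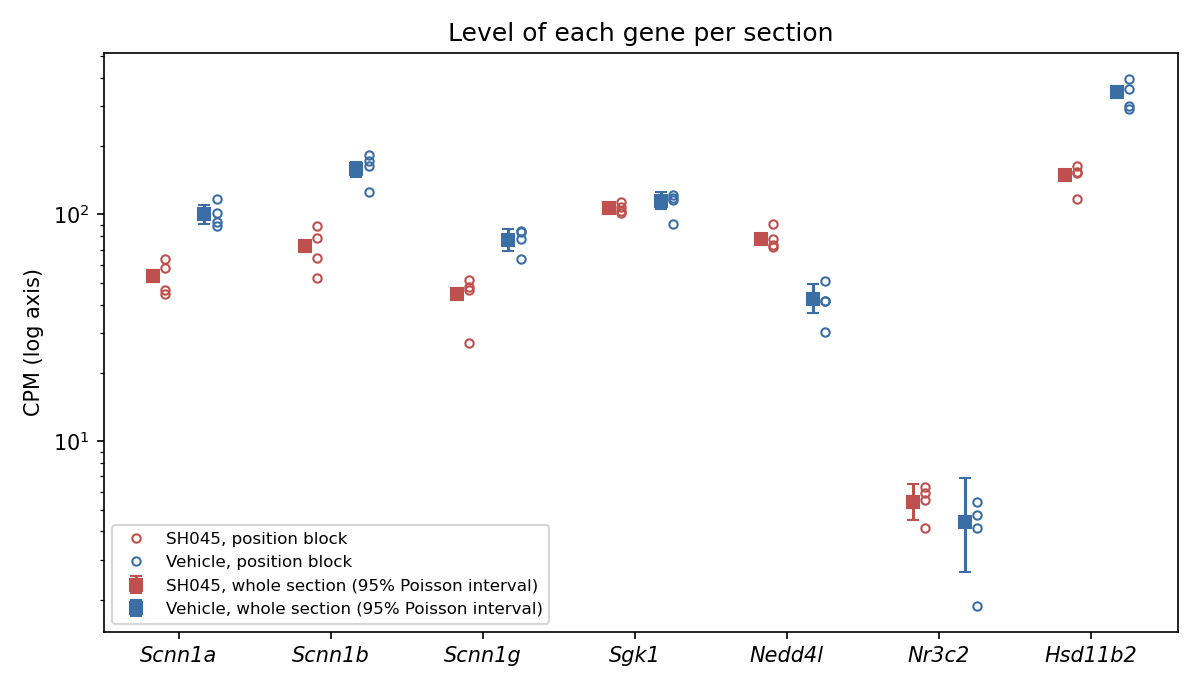
Level of each gene in CPM on a log axis, with SH045 in red and Vehicle in blue. Squares are whole sections with their 95% Poisson interval and open circles are the 4 position blocks of a section. The blocks do not overlap for Scnn1a, Scnn1b, Scnn1g, Nedd4l and Hsd11b2, and they overlap for Sgk1 and Nr3c2. Of all genes measured, 13.5% had SH045 blocks all below the Vehicle blocks and 56.3% all above.

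Because these genes belong to the distal nephron, their levels were also set against Aqp2, the vasopressin-regulated water channel of principal cells. Aqp2 had 167.3 CPM (3745 UMIs) with SH045 and 344.3 CPM (1490 UMIs) with Vehicle, which is 0.486-fold (0.457 to 0.516). Counted per Aqp2 UMI, Scnn1a gave a quotient of SH045 over Vehicle of 1.10 (0.971 to 1.25) and Scnn1b one of 0.945 (0.849 to 1.05). Scnn1g, at 1.19 (1.04 to 1.36), and Hsd11b2, at 0.889 (0.816 to 0.968), lay near 1 with intervals that leave it out. The subunits and Hsd11b2 were thus lower in near proportion to Aqp2. Sgk1 stood apart from that proportion at 1.91 (1.70 to 2.14), Nr3c2 at 2.53 (1.56 to 4.13) and Nedd4l at 3.75 (3.19 to 4.42). The 7 principal-cell markers summed to 586.7 CPM in the SH045 section, 488.6 to 704.2 over blocks, and to 684.0 CPM in the Vehicle section, 531.6 to 724.1 over blocks, so their blocks overlapped while those of Aqp2 alone did not. Within that list Npnt was at 258 CPM with SH045 and 117 CPM with Vehicle, and Fxyd4 at 104 and 93.4 CPM. Aqp4 and Elf5 were also higher with SH045, while Aqp3 and Avpr2 were lower, like Aqp2. The near proportion above is therefore one to Aqp2 and not to principal-cell markers in general. Marker lists of the neighbouring segments summed to lower levels with SH045. The 4 connecting-tubule markers summed to 314.7 against 10946 CPM, the 4 markers of the distal convoluted tubule to 156.5 against 966.6 CPM and the 7 intercalated-cell markers to 247.2 against 933.8 CPM. Single markers went against these sums, which S100g and Calb1 carry in the connecting-tubule list. Trpv5 of that list was at 74.1 CPM with SH045 and 11.1 CPM with Vehicle, and Aqp6 of the intercalated list at 45.3 and 27.0 CPM. The part that fewer distal cells may have in the lower subunit levels was not tested.

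**Figure D2:**
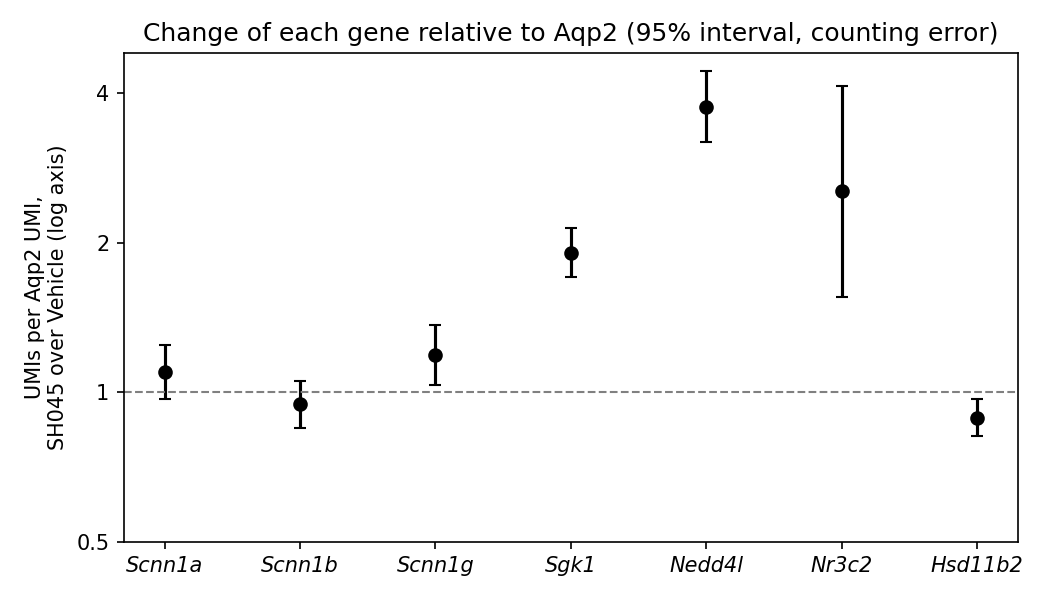
UMIs of each gene per Aqp2 UMI in the SH045 section divided by the same in the Vehicle section, on a log axis, with 95% intervals for counting error; the dashed line is 1. Scnn1a, Scnn1b, Scnn1g and Hsd11b2 lie between 0.889 and 1.19, and Sgk1, Nr3c2 and Nedd4l lie at 1.91 or above.

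The shares of spots with a UMI gave the same directions once depth was made equal. Every spot was thinned to 2500 UMIs, which left out 2 SH045 spots and 115 Vehicle spots below that depth. At equal depth Scnn1a was seen in 11.2% of 788 SH045 spots and 20.5% of 561 Vehicle spots. Scnn1b was seen in 16.2% and 26.2% and Scnn1g in 9.26% and 15.9%, so all 3 subunits were in fewer spots of the SH045 section. Hsd11b2 was in 26.6% (23.6 to 29.9) and 48.0% (43.7 to 52.2) of spots and Nedd4l in 17.5% (14.9 to 20.4) and 7.84% (5.76 to 10.4). Sgk1 was in 23.1% and 24.4%, with intervals that overlap. Without thinning the shares were 65.9% and 39.1% for Scnn1a, 91.3% and 44.4% for Sgk1 and 83.0% and 65.5% for Hsd11b2, higher for each in the deeper section. Free RNA can put a UMI into a spot whose cells do not make it. In the spots of highest proximal convoluted score, a segment not known for this channel, the thinned share of Scnn1a was 7.59% with SH045 (79 spots, median 39197 UMIs) and 3.51% with Vehicle (57 spots, median 6176 UMIs). That of Hsd11b2 was 15.2% and 21.1% in the same spots. All 3 subunits together were seen in 3 of 788 thinned SH045 spots, 0.381%, and in 12 of 561 thinned Vehicle spots, 2.14%.

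In the tissue the subunits and Hsd11b2 lay where markers of principal cells, connecting tubule and intercalated cells were high, in both sections. Spots with at least 2500 UMIs were scored for lists of cell-type markers that contain none of the 7 genes, and the 10% of highest score for each list were pooled, 79 spots with SH045 and 57 with Vehicle. The sets for different lists share spots, since a spot holds several tubules. Principal-cell spots and connecting-tubule spots shared 2 of 79 spots in the SH045 section and 12 of 57 in the Vehicle section, and principal-cell and intercalated-cell spots shared 22 and 26. Distal convoluted spots did not follow the other distal sets throughout. Relative to all spots, Hsd11b2 was 0.968-fold there with SH045 and 0.615-fold with Vehicle, and Scnn1g was 1.51-fold and 0.748-fold. In the Vehicle section other sets were high too. Scnn1g was at 163 CPM in fibroblast spots and 153 CPM in macrophage spots, against 151 CPM in principal-cell spots. Hsd11b2 in fibroblast spots was 1.69-fold its level over all spots. Of these 57 fibroblast spots, 12 were also principal-cell spots and 16 connecting-tubule spots.

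Hsd11b2 was the gene most drawn to principal-cell spots in the SH045 section. It reached 523 CPM there (492 to 556), 3.50-fold the level over all spots, and these spots held 30.8% of its UMIs but 8.78% of all UMIs. In Vehicle principal-cell spots it was at 781 CPM (700.1 to 868), 2.24-fold the level over all spots. In proximal convoluted spots it was at 78.0 and 109 CPM, so principal over proximal was 6.70-fold (5.82 to 7.75) with SH045 and 7.15-fold (5.32 to 9.80) with Vehicle. The intervals of this contrast between segments overlap.

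Scnn1g was concentrated in connecting-tubule and intercalated-cell spots. With SH045 it was at 141.7 CPM (127 to 158) in connecting-tubule spots, 3.18-fold its level over all spots, and with Vehicle at 329 CPM (273.5 to 393), 4.22-fold. Connecting-tubule spots held 34.5% of the Scnn1g UMIs of the SH045 section and 10.8% of all its UMIs. Scnn1b was at 185 CPM there with SH045 and at 562 CPM with Vehicle, and Scnn1a at 108 and 267.5 CPM. All 3 subunits were thus lower with SH045 also within connecting-tubule spots, 2.48-fold for Scnn1a (1.95 to 3.13), 3.04-fold for Scnn1b (2.57 to 3.59) and 2.32-fold for Scnn1g (1.87 to 2.86). Aqp2 was 5.68-fold lower in those spots (4.69 to 6.87). In principal-cell spots Scnn1a was 2.30-fold lower (1.76 to 2.99), Scnn1b 2.12-fold (1.75 to 2.55) and Scnn1g 1.52-fold (1.13 to 2.01). Aqp2 was 1.15-fold lower there (1.04 to 1.27), but it belongs to the marker list that chose these spots. Its level in them is partly set by that choice. The spots compared were chosen by the ranking of each section and hold different mixtures of tubules. Spots of highest injured-tubule score were not comparable places. In the Vehicle section 46 of those 57 spots were also connecting-tubule spots, with Scnn1b at 542 CPM, and in the SH045 section 1 of 79 was, with Scnn1b at 46.7 CPM.

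**Figure D3:**
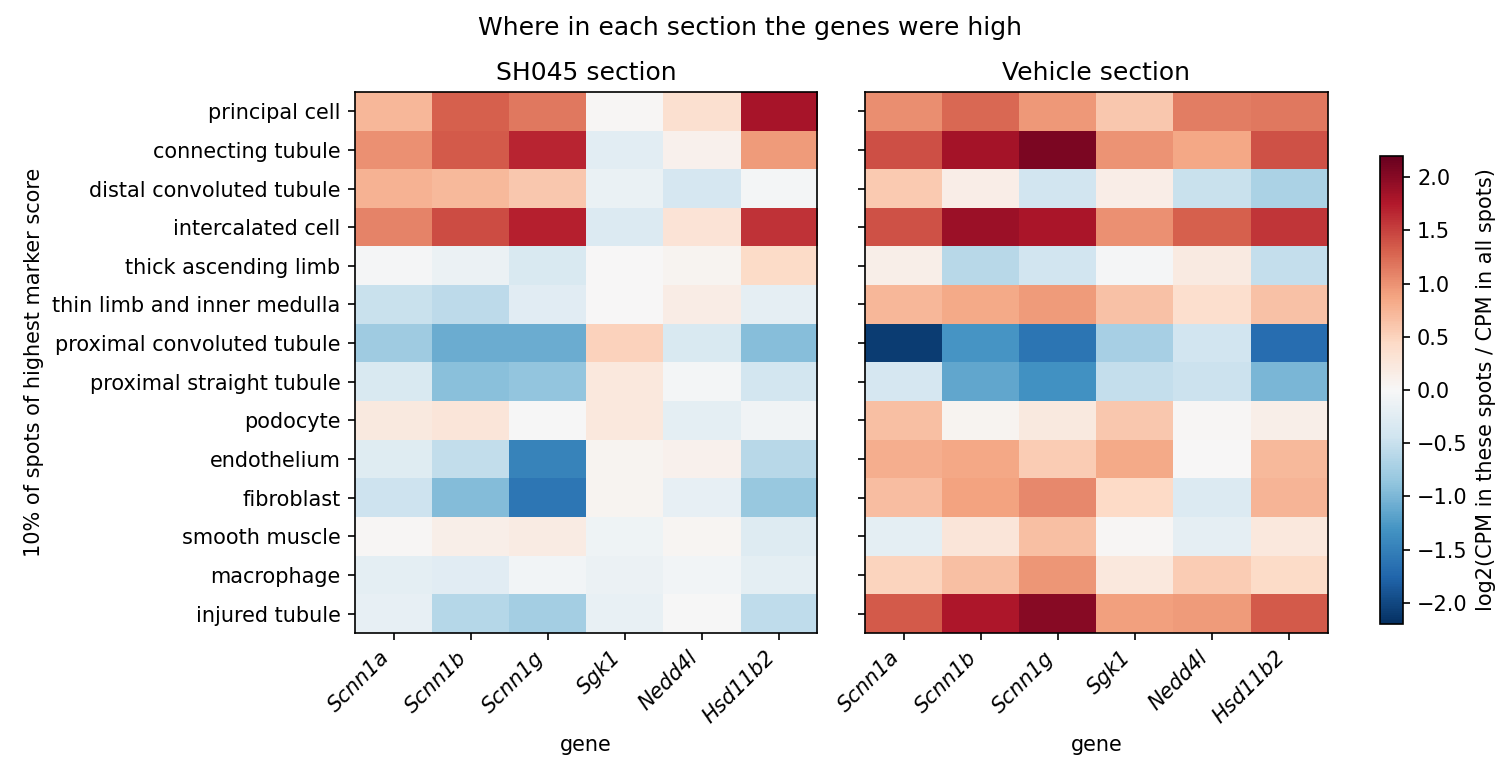
Colour gives, for each gene and each set of marker-defined spots, the log2 of the pooled CPM in those spots over the CPM in all spots of at least 2500 UMIs, with red above and blue below the section's own level; SH045 left, Vehicle right. The subunits and Hsd11b2 are red in principal, connecting-tubule and intercalated rows of both sections and blue in the proximal convoluted row, where Sgk1 is red with SH045 and blue with Vehicle.

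Sgk1 was the gene whose place in the tissue differed between the sections. With SH045 it was highest in proximal convoluted spots, at 151.5 CPM (138 to 166, 466 UMIs), and lowest in intercalated-cell spots, at 86.3 CPM (75.2 to 98.6). With Vehicle the order of these ends was turned. Intercalated-cell spots were highest at 227 CPM (183.5 to 278.5, 93 UMIs), connecting-tubule spots followed at 225 CPM (179 to 278), and proximal convoluted spots were the lowest of the 14 sets at 68.5 CPM (46.8 to 96.7, 32 UMIs). Neighbours in either order had overlapping intervals, and the ends did not. Between sections Sgk1 was 2.21-fold higher with SH045 in proximal convoluted spots and 0.380-fold its Vehicle level in intercalated-cell spots. The like total of the 2 sections therefore held opposite differences in CPM in different places. Proximal over principal spots gave 1.39 with SH045 and 0.399 with Vehicle, and the quotient of these, which no library scaling touches, was 3.49 (2.24 to 5.45). For Hsd11b2 that quotient was 1.07 (0.770 to 1.48) and for Scnn1b 1.13 (0.721 to 1.76). For Scnn1a it was 3.05 (1.56 to 5.99), which rests on 11 UMIs in the Vehicle proximal spots.

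The proximal convoluted spots of the SH045 section were also its deepest, with a median of 39197 UMIs, and 6.69% of their UMIs were mitochondrially encoded, against 4.24% in the section. Their part in the Sgk1 pattern was not tested. With spots under 10% mitochondrial UMIs alone, Sgk1 in proximal convoluted spots was 1.37-fold its level over all spots with SH045 and 0.672-fold with Vehicle. Restricted to Vehicle spots marked as tissue it was 0.617-fold. These were close to 1.42-fold and 0.603-fold with all spots.

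**Figure D4:**
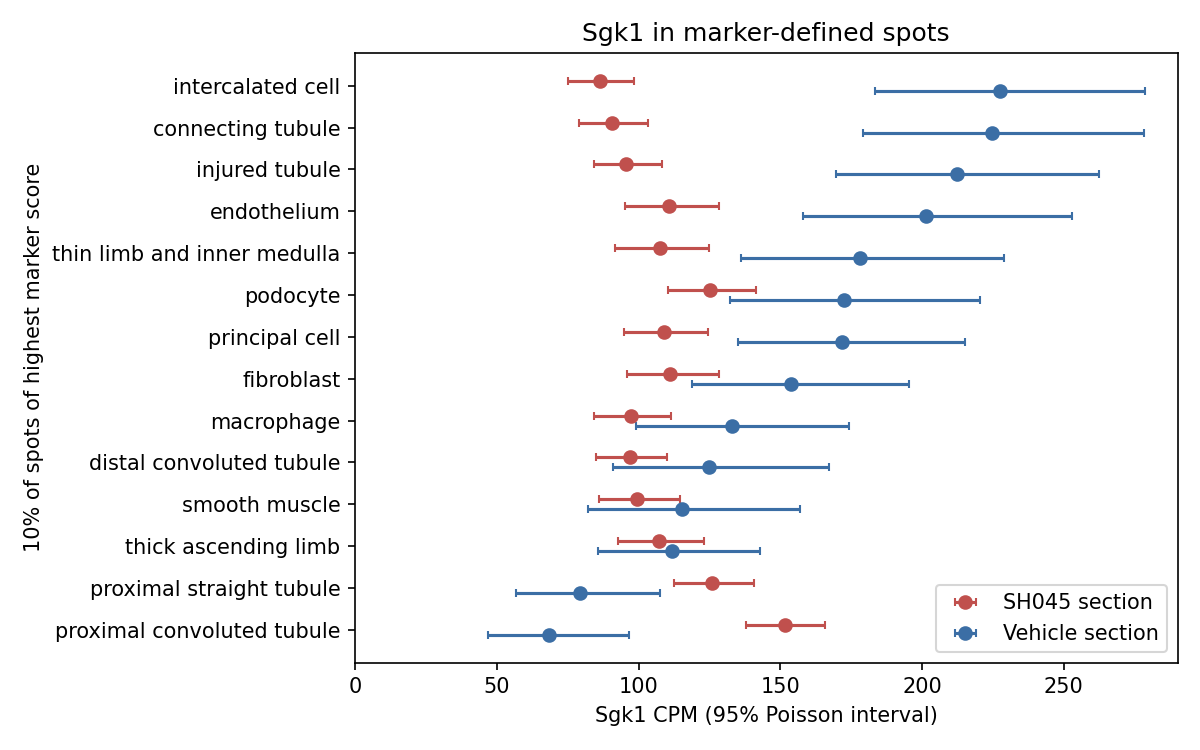
Sgk1 level in CPM with its 95% Poisson interval in the 10% of spots of highest score for each marker list, SH045 in red and Vehicle in blue, ordered by the Vehicle level. The intervals of the sections do not overlap at either end, with Vehicle above SH045 in intercalated-cell and connecting-tubule spots and below it in proximal convoluted spots.

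Ranking all spots of at least 2500 UMIs by principal-cell score, in 4 groups of like size, used every spot and not the extremes alone. From the lowest to the highest group Hsd11b2 went from 60.4 to 359 CPM with SH045 and from 159 to 615 CPM with Vehicle. Scnn1b went from 40.0 to 132 CPM and from 77.8 to 282 CPM, and Scnn1g from 20.02 to 78.5 CPM and from 45.5 to 127 CPM. Scnn1a went from 38.1 to 79.7 CPM and from 76.6 to 173 CPM. Each of these genes was higher in the top group than in the lowest in both sections. With Vehicle, Scnn1g did not rise from the lowest group to the next, at 45.5 and 45.3 CPM. Scnn1a did not either, at 76.6 and 59.4 CPM. Sgk1 was at 116, 111, 101 and 94.8 CPM in the 4 groups with SH045, and at 82.5, 96.2, 97.4 and 170 CPM with Vehicle. With Vehicle the top group, with an interval of 146 to 196, stood above the others. With SH045 it was the lowest, with an interval of 86.3 to 104 that overlaps that of the group before it.

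Nedd4l was also compared between the sections place by place. In proximal straight spots it was at 75.3 CPM with SH045 and at 31.0 CPM with Vehicle, 2.43-fold higher (1.46 to 4.34), and in proximal convoluted spots 1.91-fold higher (1.13 to 3.49). Distal convoluted spots gave 1.97 (1.07 to 4.03, on 11 Vehicle UMIs) and spots of the thick ascending limb 1.62 (1.08 to 2.52), with SH045 the higher in both. In principal-cell spots the levels were 98.7 and 93.9 CPM, a fold of 1.05 (0.747 to 1.51). Connecting-tubule spots gave 1.06 (0.717 to 1.63) and intercalated-cell spots 0.887 (0.641 to 1.25). In these last 3 sets no difference in Nedd4l was detectable at a depth of 29 to 44 Vehicle UMIs. The channel genes were lower with SH045 there, but not only there. Scnn1b was 0.534-fold its Vehicle level in proximal straight spots (0.362 to 0.803) and 0.643-fold in those of the thick ascending limb (0.467 to 0.894). In fibroblast spots it was 0.128-fold. Scnn1g in distal convoluted spots was not lower, at 1.15 (0.729 to 1.91). Across the 4 groups by principal-cell score Nedd4l went from 64.2 to 92.5 CPM with SH045 and from 23.9 to 69.2 CPM with Vehicle. Smooth muscle spots gave a fold of 2.13 (1.21 to 4.09), fibroblast spots 1.97 (1.14 to 3.62) and endothelium spots 1.89 (1.12 to 3.41). Podocyte spots gave 1.52 (0.906 to 2.74) and macrophage spots 1.17 (0.765 to 1.86), intervals that include 1. So did those of thin limb and inner medulla spots, 1.57 (0.968 to 2.69), and injured-tubule spots, 0.931 (0.642 to 1.39). Whether the fold differs between these places was not tested.

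The maps of the spots show these places.

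**Figure D5:**
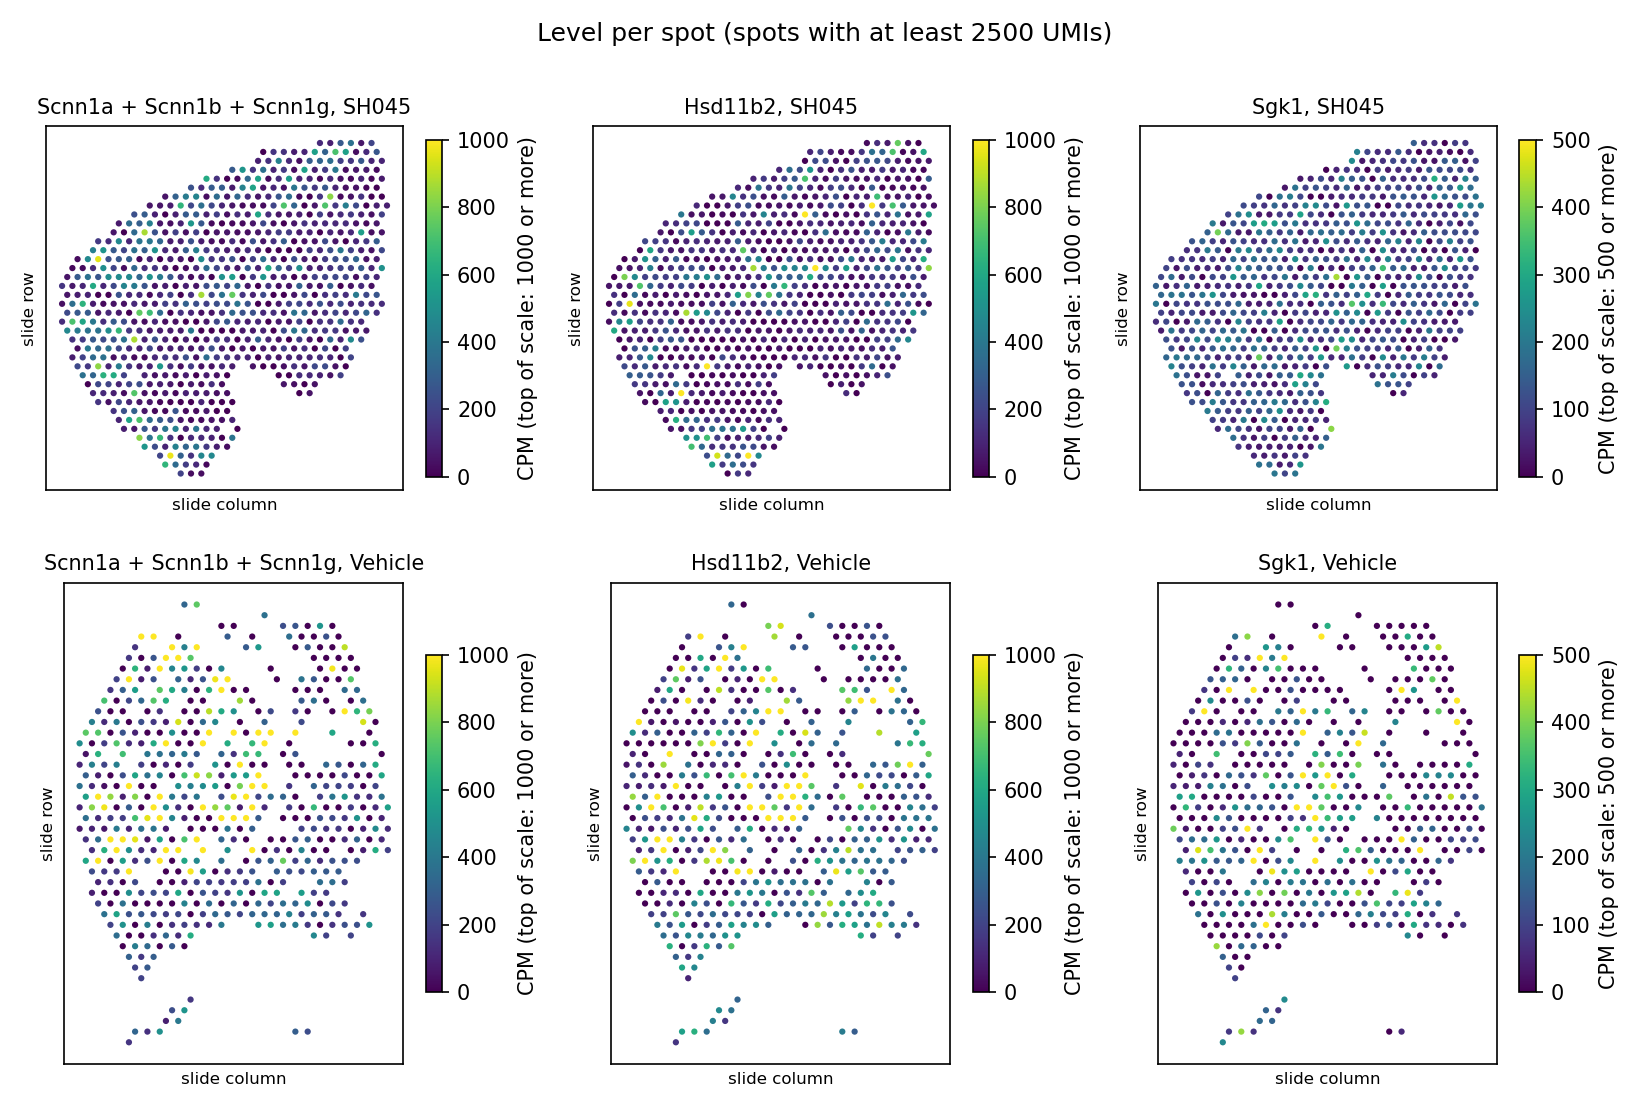
CPM per spot at its slide position for the 3 subunits summed, Hsd11b2 and Sgk1, SH045 above and Vehicle below, spots of at least 2500 UMIs; colour scales end at 1000 CPM, or 500 CPM for Sgk1. Subunit and Hsd11b2 signal is scattered over both sections, and spots at the top of the scale are more numerous in the shallower Vehicle section, where 1 UMI is worth more.

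Spots were also grouped within each section by all variable genes but the 7 described. In the SH045 section 9 regions were found. The region led by Slc12a3, Pgam2 and Il1f6 (173 spots) had the highest levels of Scnn1a, 94.7 CPM, Scnn1b, 140 CPM, and Scnn1g, 96.8 CPM, and the lowest of Sgk1, 90.7 CPM (82.9 to 99.0). Slc12a3 encodes the thiazide-sensitive sodium chloride cotransporter of the distal convoluted tubule. Sgk1 was highest, at 154 CPM (138 to 171), in the region led by Slc22a8 and Acmsd (55 spots), genes of the proximal tubule, where Scnn1a was at 24.6 CPM. Hsd11b2 was highest in the region led by Fst, Aqp2 and Ppp1r1b (87 spots), at 385 CPM, with Aqp2 at 828 CPM. Scnn1g was lowest, at 10.8 CPM, in the region led by Krt14 and Ivl (70 spots), genes of stratified epithelium. The channel and its kinase gene thus peaked in different regions of the SH045 section.

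In the Vehicle section 4 regions were found, and 1 of them had the highest level of every one of the 7 genes but Nr3c2. That region (185 spots) was led by Klk1, the kallikrein gene of the connecting tubule. It had Scnn1a at 195 CPM, Scnn1b at 367 CPM, Scnn1g at 180 CPM, Hsd11b2 at 655 CPM and Sgk1 at 185 CPM (160 to 213). The lowest levels of those 5 genes were in the region led by Pllp and Ggct (150 spots), with 57.6, 73.3, 24.7, 114 and 83.7 CPM in the same order. Mitochondrially encoded UMIs were 3.17% and 3.71% in these 2 regions and 20.8% and 18.1% in the other two, so the contrast between highest and lowest lay within the regions of low mitochondrial share. In the Vehicle section the kinase gene and the channel genes peaked together.

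Spots were also classed by their steps on the grid inward from the edge of the tissue, in classes of 1 to 2, 3 to 4, 5 to 6, and 7 or more. In the Vehicle section Scnn1b was at 128, 126, 134 and 273 CPM and Sgk1 at 99.5, 109, 97.6 and 168 CPM, both level up to the innermost class (163 spots) and high in it. Hsd11b2 did not change in one direction, at 334, 355, 219 and 455 CPM. In the SH045 section Scnn1g was at 54.5, 49.0, 34.7 and 33.1 CPM from the outer class (237 spots) to the inner (194 spots). Aqp2 was at 143, 128, 135 and 293 CPM, high in the innermost class, where Scnn1g was low. The edges are those of the spots present, which in the Vehicle section include gaps in the grid, so its outer steps are not all at the kidney's surface.

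Across single spots the genes most like the subunits and Hsd11b2 were mostly genes of the distal nephron. Correlations were taken over log-scaled counts of the 788 SH045 spots with 7977 genes, and of 561 Vehicle spots with 5812 genes, for members with at least 500 UMIs, which leaves out Nr3c2 in both sections and all but Scnn1b and Hsd11b2 in the Vehicle section. The spots of a section share its library and differ in depth, so these values are descriptions. In the SH045 section Scnn1b was most like Hsd11b2 (Pearson r = 0.571), Scnn1g (0.528) and Ctsd (0.521), so that 2 of its 3 nearest genes were members of the set. Scnn1g was most like Trpv5 (0.613), the apical calcium channel of the connecting tubule, then Atp6v1g3 (0.573), a proton pump subunit of intercalated cells, and Hsd11b2 (0.540). Hsd11b2 was most like Fxyd4 (0.580), Scnn1b (0.571) and Aqp2 (0.569), and the genes most like Scnn1a included Ctsd (0.439) and Tfcp2l1 (0.407). In the Vehicle section Scnn1b was most like Atp6v1g3 (0.511), Klk1 (0.491) and Krt7 (0.447), and Hsd11b2 like S100g (0.479), Atp6v1g3 (0.469) and Calb1 (0.425).

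Sgk1 and Nedd4l had no near neighbours. In the SH045 section the genes closest to Sgk1 were Slc13a3 (0.199), Cyp4a14 (0.187) and Gsta3 (0.185), and those closest to Nedd4l were Gm43305 (0.188), Ttyh3 (0.172) and Gskip (0.170), values too weak in sparse counts to read. Sgk1 against Scnn1g gave -0.15 with SH045 and 0.16 with Vehicle, which are equally weak.

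Among the other genes of the pathway, 58 of 61 listed genes were measured, and 25 were at least 1.5-fold higher and 14 at least 1.5-fold lower with SH045, 53.2% and 12% being the shares over all genes. The ion-moving partners of the channel were lower with it. Of 12 measured genes of the sodium pump, potassium channels and WNK kinases, 7 were lower and 1 higher, with a median log2 ratio of -1.01, against 0.63 over all genes. Fxyd2, which encodes the γ subunit of the pump that carries sodium out of the cell on the basolateral side, was at 2695 CPM with SH045 and 7054 CPM with Vehicle. Atp1b1, at 1317 and 1966 CPM, and the potassium channel gene Kcnj16, at 318 and 442.5 CPM, were lower by less than 1.5-fold. The pump is shared by other tubule segments, so these totals are not those of the collecting duct.

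Genes for proteases that cleave and activate the channel, and for their inhibitors, were split. Of 8 measured, 4 were higher and 2 lower, against 53.2% and 12% of all genes. The median log2 ratio was 0.44. Protease genes were found in both directions. Prss8, for the membrane-anchored prostasin that cleaves the γ subunit, was at 172 CPM with SH045 and 333 CPM with Vehicle, a fold of 0.517 (0.486 to 0.549), near that of the subunits. Klk1, for tissue kallikrein, was at 163 and 11178 CPM, 0.0146-fold. St14, for the protease matriptase, was 3.53-fold higher with SH045 (2.91 to 4.31), at 90.4 against 25.6 CPM, and was named after its values were seen. Spint2 and Serpine2, which encode inhibitors of such proteases, were higher with SH045, at 739 against 201.0 CPM and at 307 against 30.5 CPM.

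The ubiquitin and 14-3-3 genes held 6 higher and 1 lower of 10 measured, near the 53.2% and 12% of all genes. Their median log2 ratio was 0.83. Nedd4, the relative of Nedd4l with a wider range of tissues, was at 358 CPM with SH045 and 82.7 CPM with Vehicle, 4.33-fold higher (3.89 to 4.83). Ndfip1, an adaptor of these ligases, was at 310 and 345 CPM, and the 14-3-3 genes Ywhae and Ywhaq, whose proteins bind phosphorylated NEDD4-2, were at 330 against 179 CPM and 353 against 201.5 CPM. Relative to the shift of all genes 1 of the 10 was higher and 3 lower, against 27.3% and 25.7% of all genes.

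The kinase list around SGK1 gave 3 higher and 3 lower of 11, against 53.2% and 12% of all genes. Its median log2 ratio was 0.39. Ndrg1, whose protein is a substrate of SGK1, was at 1295 CPM with SH045 and 2489 CPM with Vehicle. Mtor, the kinase at the core of the complex that activates SGK1, was at 57.7 and 105 CPM. Akt1, a related kinase gene, was at 117 and 40.2 CPM, and Akt2 at 89.4 and 68.2 CPM.

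Genes of steroid receptors and their chaperones held 6 higher and 0 lower of 9, against 53.2% and 12% of all genes. Their median log2 ratio was 0.78, near the 0.63 of all genes. Hsp90ab1 was at 1017 CPM with SH045 and 592.5 CPM with Vehicle, Hsp90aa1 at 465 and 322 CPM, Ptges3 at 192 and 94.7 CPM and Fkbp4 at 176 and 191 CPM. The first pair encode forms of HSP90, which holds the unliganded receptor ready to bind steroid, and the second pair its co-chaperones. Relative to all genes, 1 of the 9 was higher and 1 lower, against 27.3% and 25.7% of all genes. Corticosteroid response genes held 5 higher and 1 lower of 8 measured, against 53.2% and 12% of all genes. The median log2 ratio of these response genes was 1.36. Relative to all genes 5 were higher and 2 lower, where 27.3% and 25.7% of all genes were. Errfi1 was at 356 against 151 CPM, Tsc22d3, which encodes the glucocorticoid-induced leucine zipper, at 86.5 against 30.3 CPM, and Klf9 at 66.6 against 52.7 CPM. Ndrg2 was lower, at 52.7 against 133 CPM. Several of these genes also respond to other stimuli and in other cell types of the kidney. The steroid-forming genes of the adrenal cortex, checked because the gland lies beside the kidney, summed to 1.65 CPM with SH045 and 0.924 CPM with Vehicle, with Cyp11b2, the aldosterone synthase gene, at 0 in both.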

How the data were processed

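The authors deposited raw UMI counts per spot and gene for each section, made with Space Ranger 2.0.1 per the file headers and aligned to mm10 per the submitters' processing notes; the annotation and alignment settings are not given in the sources used. Counts were summed per section and divided by its total, giving CPM (computed here). Intervals are exact (Poisson for CPM, conditional binomial for folds, Clopper-Pearson for shares; 95%) and cover counting error only. Log2 ratios used a pseudocount of 1 CPM. With 1 section per group there was no test; a call means at least 1.5-fold among genes reaching 10 CPM in one section or both.

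Spots of at least 2500 UMIs were scored as the mean log(1 + count per 10000 UMIs) of each marker list. Regions came from Leiden clustering (scanpy 1.11.5, resolution 0.6, 2000 variable genes, 20 components, 15 neighbours), run on all spots without the 7 genes. No doublet caller was used on spots. Gene coordinates and promoter windows are those of RefSeq GRCm38.p6, the build of mm10. TMM factors (edgeR 4.0.16) and median-of-ratios factors (DESeq2 1.42.0) served only as alternative scalings. The folds and their intervals were tried on simulated Poisson counts. These hold no difference between mice or sections, so the trial bears on counting error only. Named genes were the 7 members, Aqp2, Havcr1 and Lcn2, the 4 of highest mean CPM in each pathway list, the 3 most like each member across spots, marker genes, and the genes leading a region. Some genes that this rule names are not reported here. The members and lists were chosen with earlier results of these data known. The T and NK cell and urothelium lists were not ranked in the Vehicle section, nor the adrenal list in either, because too few spots had a marker UMI. Single-cell libraries and protein sequences were not used here.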

Additional observations from a re-analysis of the deposited data

How the results depend on the processing

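No paired analysis was possible because each group is 1 section and the labels carry no replicate numbers. Alternative settings gave 335 values of 81 results. Among them were 91 log2 ratios of the 7 genes, in which no gene counted as at least 1.5-fold higher or lower changed direction. The other values were shares, counts, medians and contrasts within a section, which do not bear on that statement. Smaller differences did. The Nr3c2 log2 ratio, 0.25 in the report, was -0.24 with TMM and -0.27 with median-of-ratios factors, and the Sgk1 share of spots, 23.1% with SH045 and 24.4% with Vehicle, was 12.6% and 10.3% when thinned to 1000 UMIs. The count of genes at least 1.5-fold higher, 1 in the report, was 0 with TMM factors, 0 with median-of-ratios factors, 0 with a 2-fold limit and 0 relative to the median of all genes, and 2 with Vehicle spots marked as tissue only, where Nr3c2 was added. Nr3c2 entered that count although it did not reach 10 CPM. The count at least 1.5-fold lower, 4 in the report, was 2 with a 2-fold limit and 5 with TMM, with median-of-ratios factors and relative to all genes. The median log2 ratio of the 7 genes, -0.78 in the report, was -1.35 with TMM, -1.40 with median-of-ratios factors and -1.04 in spots under 10% mitochondrial UMIs, where the median of all genes was 0.03, -0.02 and 0.54. Over 13 alternatives the log2 ratio ran from -1.73 to -0.97 for Scnn1b, from -1.83 to -1.05 for Hsd11b2, from -0.73 to -0.05 for Sgk1, from 0.23 to 1.26 for Nedd4l and from -0.27 to 0.81 for Nr3c2; relative to all genes Nedd4l ran from -0.01 to 0.61. Sgk1 in SH045 proximal convoluted spots, 1.42-fold its level over all spots with 10% of spots, was 1.23-fold with 20%. Without a filter on low values 60.4% of all genes were at least 1.5-fold higher and 13.6% lower, and with a filter at 50 CPM 45% and 19.5%. Leaving out Vehicle spots by the tissue mark, or spots of high mitochondrial share in marker-defined sets, was chosen after seeing the data. Depth limits Nr3c2 and the marker-defined Vehicle sets, in which members other than Nr3c2 can rest on as few as 11 UMIs.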
